A study of Sus scrofa with 9 samples.

Results

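The genes described here encode the proteins by which an endothelial cell, the cell that lines a blood vessel, catches leukocytes from the blood and lets them through the vessel wall. They were listed by name as 8 genes (SELE, SELP, VCAM1, ICAM1, ICAM2, ALCAM, F11R and CD99), and every probe set whose platform annotation gives exactly 1 gene symbol, that of a listed gene, was taken. This gave 10 probe sets for 7 of the 8 genes, out of 24123 probe sets in all. F11R, the gene of a junctional adhesion molecule, is therefore not analysed here. Of the 10 probe sets 8 passed the filter on dim signals and were tested, among 15299 tested probe sets. The other two, both of ALCAM, did not pass it.

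All 9 samples were endothelial cells of the pig coronary artery in culture, taken at basal condition and hybridised to 1 Affymetrix porcine array each. The passage 4 group (3 arrays) had been passaged every week up to the fourth passage and is called senescent in the labels. The regenerated group (3 arrays) had grown back in the animal after the endothelium was stripped from the vessel, and was then scraped off and cultured with no further passage. The passage 1 group (3 arrays) was the control, cultured for 1 week. No treatment, transgene or deletion is given for any group. The labelling reactions of passage 4 and passage 1 cells started with 1 ug of total RNA and those of regenerated cells with 0.5 to 1 ug, so RNA input cannot be told apart from regeneration. Whether a group's arrays stand for different animals or cultures is not stated in the labels. The p-values thus cover the spread among these arrays alone, and that spread may be technical.

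Leukocytes leave the blood in steps. Selectins on the endothelium (E-selectin, from SELE, and P-selectin, from SELP) bind sugars on passing leukocytes and make them roll. Proteins of the immunoglobulin family (VCAM-1, ICAM-1 and ICAM-2) bind leukocyte integrins and hold the cell firmly, and junction proteins such as CD99 take part in its passage between endothelial cells. In cultured endothelium SELE, VCAM1 and ICAM1 are known as genes induced by inflammatory cytokines through NF-kB, P-selectin is also stored in Weibel-Palade bodies, and ICAM2 is known as a gene that resting endothelium expresses.

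The values are MAS5 signals, a brightness per probe set on a linear scale that was already scaled per array. Differences are given on the log2(signal + 16) scale, from 1 limma fit over the 9 arrays, and an adjusted p under 0.05 over all tested probe sets counted as past the threshold. Of the endothelial markers, PECAM1 lay between 5520 and 9079 and CDH5 between 8524 and 11246 in the 9 arrays, whereas the brightest probe sets of VWF and KDR stayed at or below 52.1 and 23.6. Of 11 tested endothelial markers, NOS3 fell at passage 4 (-0.97, adjusted p = 0.045), and in regenerated cells CLDN5 fell (-1.62, adjusted p = 0.0134) and ENG rose (1.92, adjusted p = 0.0153). ENG was also lower at passage 4 than in regenerated cells (-1.63, adjusted p = 0.0177). Of 16 leukocyte markers with a probe set, 15 were below the filter, PTPRC among them, and the highest signal of those in any array was 128. That was AIF1 in passage 1 array 3. This array was also the highest of the 9 for FCER1G (80.6), TYROBP, SPI1, LCP1, ITGB2 and CD163. It was not the highest for the other markers below the filter, PTPRC and CD14 among them. The sixteenth, LAPTM5, lay between 4269 and 7065 and passed no test. Bacterial spike-in RNA (dap and thr) divided the arrays into 2 kinds by how far the 5' signal fell below the 3' signal, a division known from earlier results. The mean log2 difference over 6 probe set pairs (5' minus 3') ran from -2.09 to -1.77 in the passage 4 arrays and passage 1 array 1, and from -5.19 to -4.25 in the regenerated arrays and passage 1 arrays 2 and 3. The labels name no labelling batch, so the 2 kinds rest on these spike-in signals alone, and what set them apart was not tested. Taking the spike-in kind as a block in the fit is called the labelling block here. It sets passage 4 against passage 1 array 1 alone, and regenerated cells against passage 1 arrays 2 and 3.

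**Figure D1:**
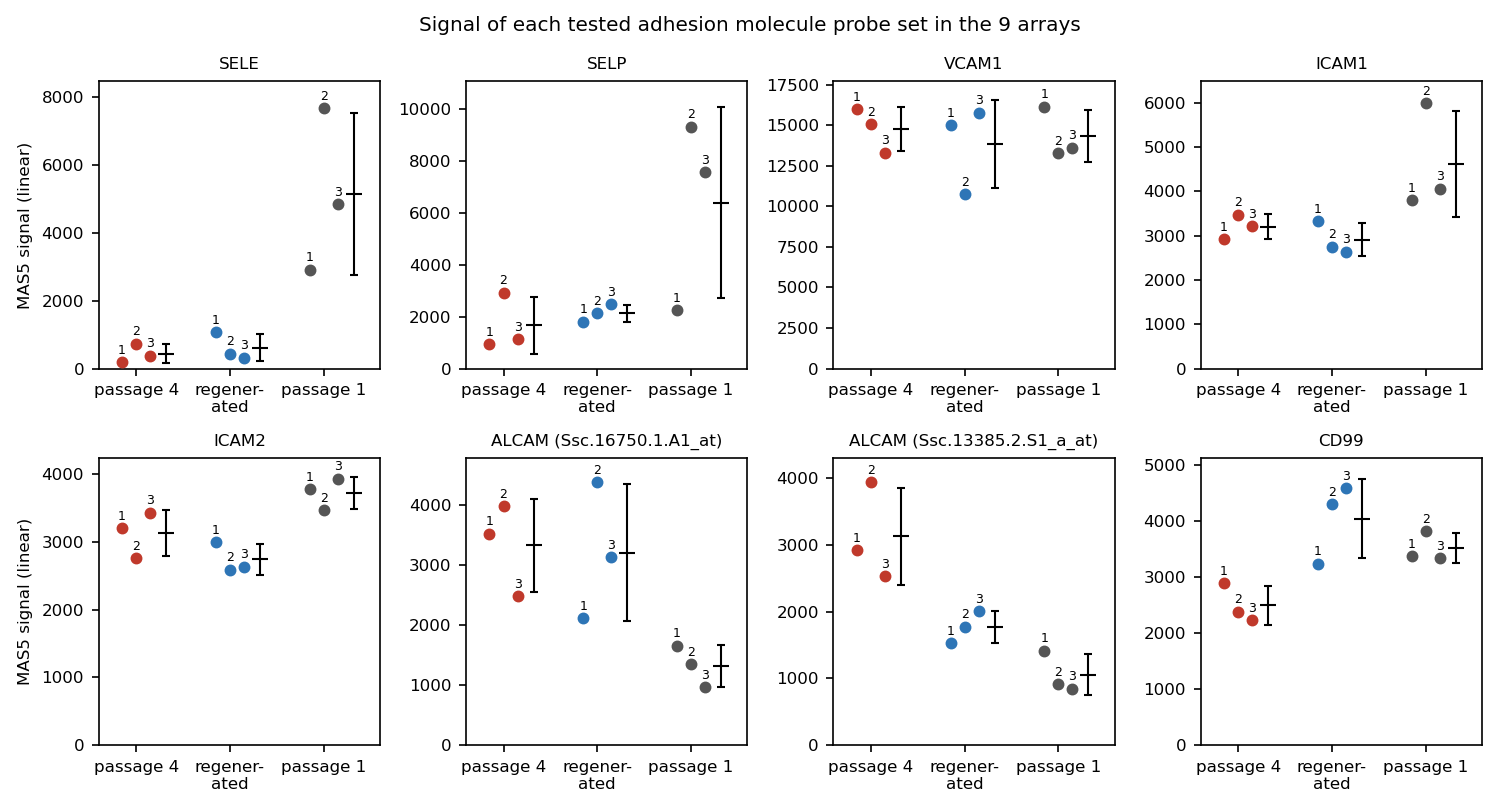
MAS5 signal (linear scale, vertical axis) of the 8 tested probe sets in each array, numbered by replicate, with the mean and SD of each group (n = 3) beside the points. SELE lay at 1077 or less in the 6 passage 4 and regenerated arrays and at 2919 or more in the 3 passage 1 arrays, both ALCAM probe sets lay higher in passage 4 and regenerated arrays than in passage 1 arrays, and VCAM1 overlapped among all groups.

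In passage 4 cells, SELE was lower and ALCAM higher than in passage 1 cells, and no other listed gene passed the threshold. SELE fell to 435 ± 277 in passage 4 cells, against 5151 ± 2398 in passage 1 cells (SD, n = 3 each), which is 12.2-fold lower on the fitted scale. The 2 tested ALCAM probe sets, called A (its ID ends in A1_at) and B (its ID ends in S1_a_at) here, rose 2.51-fold and 2.96-fold. VCAM1 was at nearly equal signal in both groups. In all, 2 of the 8 tested probe sets rose and 1 fell. Of all tested probe sets 4.79% passed, 2.71% higher and 2.08% lower. The listed genes were chosen with earlier results of these data known, so these shares are not a test of enrichment. The groups did not overlap for 6 of the 8, with 2 higher and 4 lower, where 24.9% of all tested probe sets did not overlap, 15.3% higher and 9.61% lower. The median log2 difference of the 8 was -0.38, against 0.04 over all tested probe sets.

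In regenerated cells, SELE was again lower and 1 ALCAM probe set higher than in passage 1 cells. SELE fell to 613 ± 405 in regenerated cells, against 5151 ± 2398 in passage 1 cells (SD, n = 3 each), 8.66-fold lower on the fitted scale. ALCAM probe set A rose 2.37-fold, and probe set B was 1.70-fold higher without passing. In all, 1 of the 8 rose and 1 fell, where 5.49% of all tested probe sets passed, 2.98% higher and 2.51% lower. The groups did not overlap for 5 of the 8, with 2 higher and 3 lower, where 23% of all tested probe sets did not, 12.3% higher and 10.8% lower. The median of the 8 was -0.25, against -0.01 over all tested probe sets. Both comparisons use the same 3 passage 1 arrays.

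Between passage 4 and regenerated cells 2 of the 8 passed, 1 higher and 1 lower, where 12.5% of all tested probe sets passed, 8.14% higher and 4.35% lower. CD99 was 1.61-fold lower at passage 4 and ALCAM probe set B 1.74-fold higher. The groups did not overlap for these 2 of the 8, where 36.2% of all tested probe sets did not overlap, 20.1% higher and 16.1% lower. The median of the 8 was 0.10, against 0.01 over all tested probe sets.

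**Figure D2:**
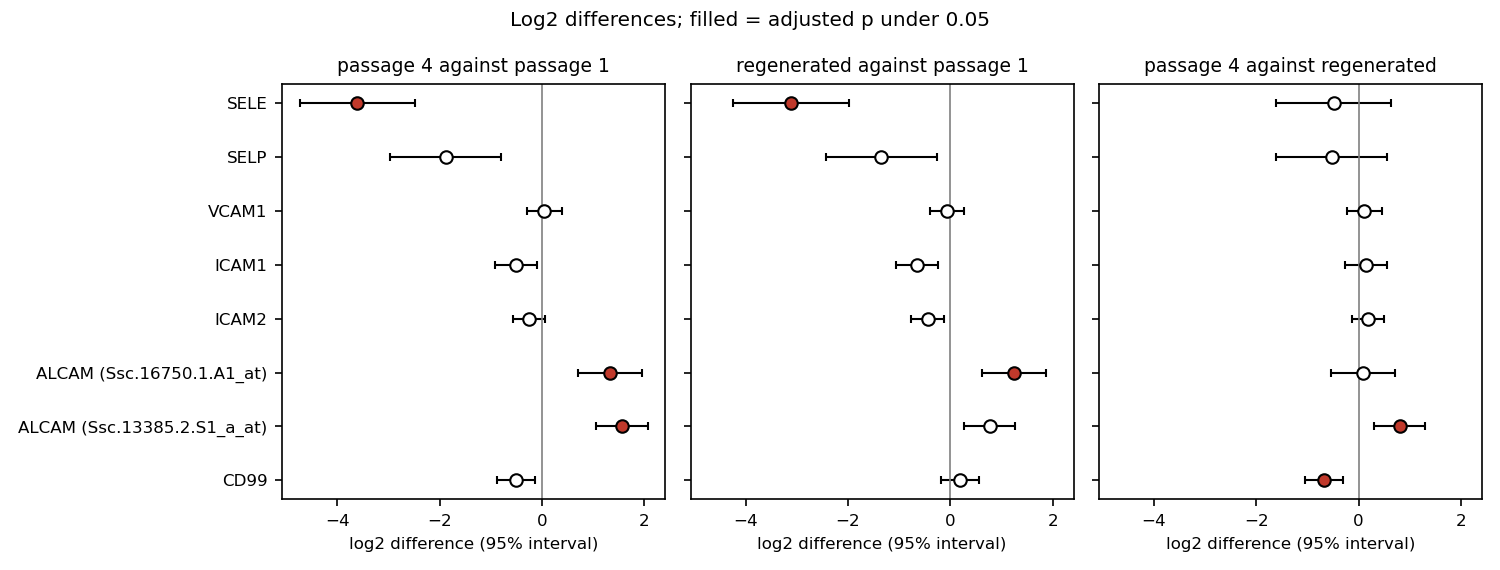
Log2 difference (horizontal axis) with its 95% interval for each tested probe set in the 3 comparisons. Filled points passed an adjusted p of 0.05. SELE stands at -3.60 and -3.11 against passage 1, the 2 ALCAM probe sets lie to the right, and the VCAM1 intervals include 0 in every comparison.

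SELE encodes E-selectin, which the endothelium makes after cytokine stimulation and which slows leukocytes into rolling. Its signal was 188, 734 and 384 in passage 4 arrays 1, 2 and 3. It was 1077, 441 and 323 in regenerated arrays 1, 2 and 3, and 2919, 7686 and 4848 in passage 1 arrays 1, 2 and 3. Every passage 4 and regenerated array lay below every passage 1 array, while passage 4 and regenerated arrays were interleaved. The log2 difference was -3.60 at passage 4 (SE 0.52, adjusted p = 0.00424) and -3.11 in regenerated cells (SE 0.52, adjusted p = 0.00638). In bulk RNA, fewer cells that express the gene and less of its RNA per cell cannot be told apart. With the labelling block the passage 4 difference was -2.90, past no threshold (adjusted p = 0.0756), and it rests there on passage 1 array 1, the lowest of its group. For regenerated cells it was -3.47 with the block (adjusted p = 0.00635). Between passage 4 and regenerated cells the difference was -0.49, with a 95% interval from -1.62 to 0.64 (adjusted p = 0.578).

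SELP encodes P-selectin, which is stored in Weibel-Palade bodies and brought to the cell surface within minutes of stimulation. Its signal was 949, 2929 and 1126 in passage 4 arrays 1, 2 and 3. It was 1807, 2132 and 2471 in regenerated arrays 1, 2 and 3, and 2262, 9331 and 7575 in passage 1 arrays 1, 2 and 3. Passage 1 array 1 stood inside the range of the other groups, and the other two passage 1 arrays stood above every other array. SELP did not pass at passage 4 (log2 difference -1.88, SE 0.50, 95% interval -2.97 to -0.79, adjusted p = 0.0537) or in regenerated cells (-1.35, SE 0.50, 95% interval -2.44 to -0.26, adjusted p = 0.135). Without passage 1 array 1 it passed in both, at -2.51 (adjusted p = 0.00351) and -1.98 (adjusted p = 0.0164). With the labelling block, where passage 4 is set against that array alone, SELP stood at -0.62 at passage 4 (adjusted p = 0.653), and at -1.98 in regenerated cells (adjusted p = 0.0166). At passage 4 it also passed without passage 4 array 2, the highest of its group (-2.38, adjusted p = 0.0316). With single arrays left out, SELP ran from -2.51 to -1.49 at passage 4, with adjusted p up to 0.207. In regenerated cells it ran from -1.98 to -0.96, with adjusted p up to 0.337. The smallest differences were those without passage 1 array 2, the highest of its group. Platelets carry P-selectin too: the summed signal of 3 platelet marker genes ran from 207 to 286 at passage 4 and from 184 to 309 in regenerated cells, against 220 to 224 at passage 1.

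Pooled over the groups, the selectins varied most between arrays of a group among the 8 tested probe sets. The pooled SD within groups was 0.84 for SELE and 0.82 for SELP on the log2 scale, against a median of 0.31 over all tested probe sets, and from 0.13 to 0.43 for the other 6 tested probe sets. For SELP the SD was 0.87 at passage 4 and 1.10 at passage 1, but 0.22 in regenerated cells. Among passage 1 arrays the highest signal was 2.63 times the lowest for SELE and 4.12 times for SELP. In both genes array 1 was the lowest passage 1 array and array 2 the highest, and array 1 was the lowest and array 2 the highest at passage 4 too. In regenerated cells the order was opposite: array 1 was the highest for SELE and the lowest for SELP.

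**Figure D3:**
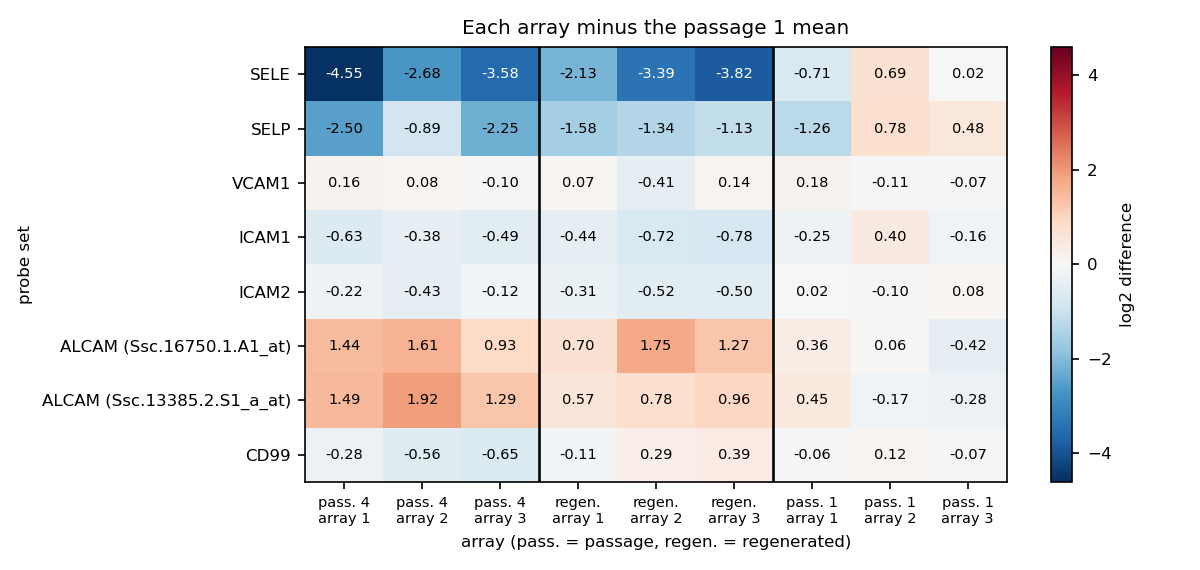
Log2 difference of each array (columns) from the passage 1 mean for the 8 tested probe sets (rows), blue below and red above that mean. SELE was below it in all 6 passage 4 and regenerated arrays, most in passage 4 array 1 (-4.553), and passage 1 array 1 stood at -0.71 for SELE and -1.26 for SELP.

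Of the immunoglobulin family members that bind integrins, VCAM1 did not differ detectably on this probe set and ICAM1 and ICAM2 were lower without passing. VCAM1 encodes the ligand of the integrin VLA-4 on monocytes and lymphocytes. Its signal was 15989, 15064 and 13308 in passage 4 arrays, 15017, 10738 and 15779 in regenerated arrays, and 16151, 13258 and 13608 in passage 1 arrays. All 3 groups overlapped, with regenerated array 2 the lowest of all. These signals lay between the 99.4 and 99.8 percentiles of their arrays, and whether the array records differences in full at such brightness was not tested. The log2 difference was 0.05 at passage 4 (95% interval -0.29 to 0.39, adjusted p = 0.912) and -0.07 in regenerated cells (-0.41 to 0.27, adjusted p = 0.846), so the passage 4 interval spans folds of 0.82 to 1.31. The sign of these VCAM1 differences changed with the scaling or the arrays used.

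ICAM1 encodes the ligand of the leukocyte integrins LFA-1 and Mac-1. Its signal was 2914, 3469 and 3216 in passage 4 arrays, 3325, 2747 and 2633 in regenerated arrays, and 3804, 5994 and 4060 in passage 1 arrays. Every passage 4 and regenerated array lay below every passage 1 array, and passage 1 array 2 stood well above the other two. The difference was -0.50 at passage 4 (SE 0.19, adjusted p = 0.158) and -0.65 in regenerated cells (SE 0.19, adjusted p = 0.0677), and neither passed. In regenerated cells ICAM1 passed in 3 of the 18 alternatives. Its call appeared without passage 1 array 1 (-0.77, adjusted p = 0.0464) and without regenerated array 1 (-0.75, adjusted p = 0.0493). The labelling block was the other (-0.77, adjusted p = 0.0468). The regenerated difference shrank to -0.44 (adjusted p = 0.179) when passage 1 array 2 was dropped. The passage 4 difference, which passed in none of the 18, then shrank to -0.30 (adjusted p = 0.498). Dropping regenerated array 2 or 3 instead gave -0.61 and -0.58 in regenerated cells (adjusted p = 0.182 and 0.193).

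ICAM2 encodes another ligand of LFA-1, which resting endothelium carries at its junctions. Its signal was 3198, 2753 and 3431 in passage 4 arrays, 2995, 2590 and 2633 in regenerated arrays, and 3779, 3468 and 3932 in passage 1 arrays. The groups did not overlap with passage 1 in either comparison, although the gap to passage 4 array 3 was narrow. The difference was -0.26 at passage 4 (SE 0.14, adjusted p = 0.374) and -0.44 in regenerated cells (SE 0.14, adjusted p = 0.0975). With a pooled SD within groups of 0.13, ICAM2 had the smallest pooled spread of the 8 tested probe sets, and it passed in none of the 18 alternatives for either comparison.

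ALCAM encodes an adhesion protein of the immunoglobulin family that binds itself and CD6 on T cells. Probe set A had 3530, 3984 and 2481 in passage 4 arrays, 2112, 4391 and 3132 in regenerated arrays, and 1656, 1350.1 and 961 in passage 1 arrays. Probe set B had 2917, 3936 and 2534 in passage 4 arrays, 1530.1, 1776 and 2008 in regenerated arrays, and 1413, 911 and 842 in passage 1 arrays. In both probe sets every passage 4 and regenerated array lay above every passage 1 array, and passage 1 array 1 was the highest of its group.

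At passage 4 both ALCAM probe sets rose, by 1.33 for probe set A (SE 0.28, adjusted p = 0.0246) and 1.57 for probe set B (SE 0.23, adjusted p = 0.00456). In regenerated cells probe set A rose by 1.24 (SE 0.28, adjusted p = 0.0284), while probe set B was at 0.77 (SE 0.23, adjusted p = 0.0767). The probe sets differ in how passage 4 stands to regenerated cells: probe set A was at 0.09 (95% interval -0.53 to 0.71, adjusted p = 0.874) and probe set B at 0.80 (adjusted p = 0.0422). That last call was lost when any 1 passage 4 or regenerated array was left out (adjusted p from 0.055 to 0.155) and with the replicate number as a block (adjusted p = 0.0714). With the labelling block it moved to 0.12 (adjusted p = 0.887). All passage 4 arrays are of 1 spike-in kind and all regenerated arrays of the other, so spike-in kind and group cannot be told apart in that call.

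With the labelling block neither ALCAM difference at passage 4 passed (A 0.97, adjusted p = 0.304, and B 1.11, adjusted p = 0.0792), and both in regenerated cells did (A 1.42, adjusted p = 0.0239, and B 0.99, adjusted p = 0.0242). The calls of probe set A were also lost when single arrays were left out: at passage 4 without passage 4 array 1 or 2 or passage 1 array 2 or 3 (1.27, 1.19, 1.36 and 1.12, adjusted p = 0.0819, 0.0944, 0.0738 and 0.0713), and in regenerated cells without regenerated array 2 or 3 or passage 1 array 2 or 3 (0.99, 1.23, 1.27 and 1.03, adjusted p = 0.117, 0.0922, 0.0593 and 0.0944). The summed signal of 11 fibroblast marker genes ran from 6356 to 11166 at passage 4 and from 5000.1 to 6256 in regenerated cells, against 2114 to 3937 at passage 1. At passage 4 most of it was POSTN, a matrix protein, with 5059, 9212 and 4892 in passage 4 arrays, 13.1, 1500 and 60.2 in regenerated arrays, and 1103, 729 and 685 in passage 1 arrays. POSTN was higher at passage 4 than in regenerated cells (5.35, adjusted p = 0.00809), the 1 fibroblast marker called higher there. The markers FAP, THY1 and FBLN1 were lower at passage 4 than in regenerated cells (-3.35, -2.35 and -1.67, adjusted p = 0.00167, 0.0061 and 0.0214). Against passage 1, POSTN passed in neither comparison (2.87 at passage 4, adjusted p = 0.147, and -2.48 in regenerated cells, adjusted p = 0.188). Without POSTN, singled out after its values were seen, the sum ran from 1464 to 1954 at passage 4 and from 4334 to 6243 in regenerated cells, against 1145 to 3252 at passage 1. None of the 8 tested fibroblast markers passed at passage 4 against passage 1. LUM, FAP and THY1 rose in regenerated cells (3.50, 3.25 and 2.89, adjusted p = 0.0396, 0.00241 and 0.00327). LUM lay at 660, 30.1 and 1014 in regenerated arrays, against 5.80, 17.9 and 14.1 in passage 1 arrays. The part of the fibroblast markers in the ALCAM result was not tested.

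CD99 encodes a glycoprotein of the endothelial junction that acts late in the passage of leukocytes. Its signal was 2883, 2376 and 2222 in passage 4 arrays, 3236, 4294 and 4581 in regenerated arrays, and 3369, 3819 and 3338 in passage 1 arrays. Passage 4 arrays were the lowest of all, and regenerated array 1 stood below the passage 1 arrays while the other two stood above them. CD99 was lower at passage 4 than in regenerated cells by 0.68 on the log2 scale (95% interval of the difference -1.06 to -0.31, adjusted p = 0.0225). Against passage 1 it was at -0.50 at passage 4 (SE 0.17, adjusted p = 0.128) and at 0.19 in regenerated cells (SE 0.17, adjusted p = 0.557). The call against regenerated cells was lost without passage 4 array 2 or 3 or regenerated array 2 or 3 (adjusted p from 0.0777 to 0.0963). Neither spike-in kind holds both groups, and with the labelling block the difference was -0.60 (adjusted p = 0.339).

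**Figure D4:**
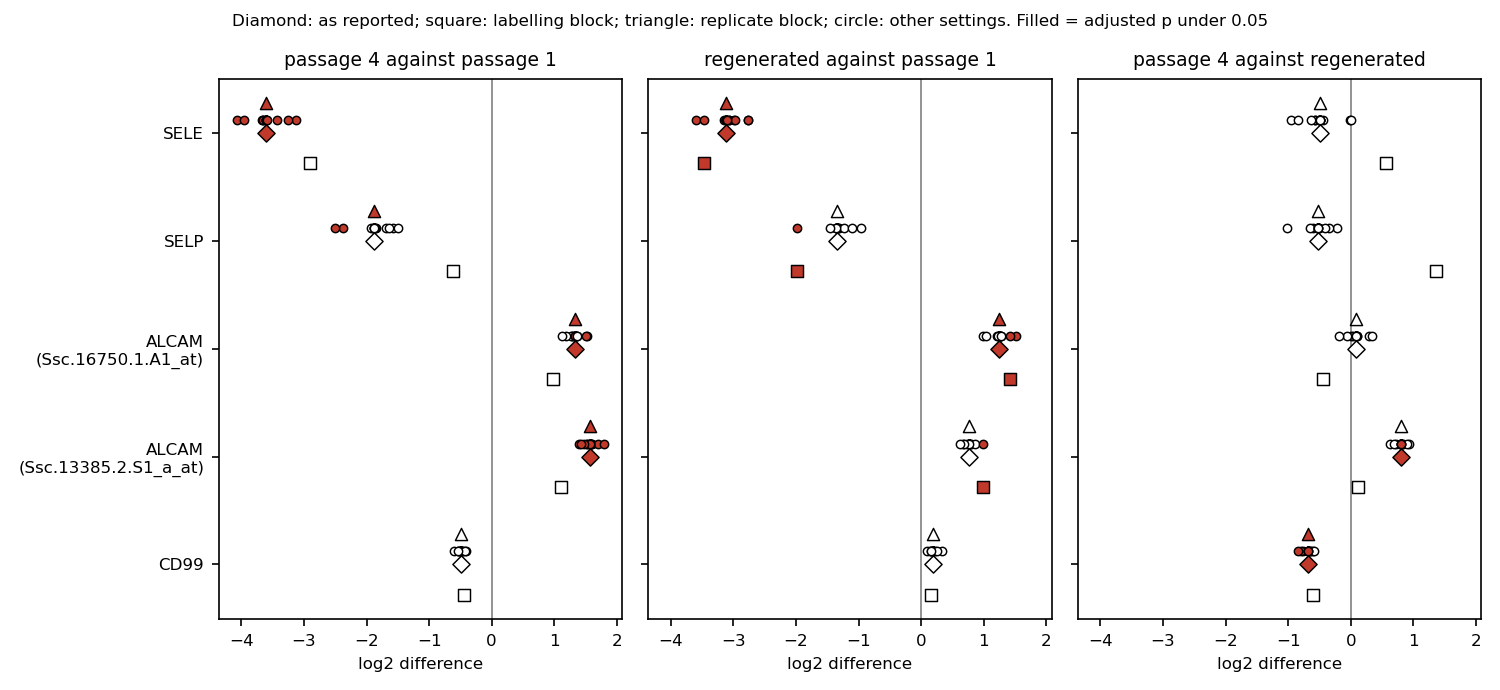
Log2 difference (horizontal axis) of the 5 probe sets of SELE, SELP, ALCAM and CD99 as reported and under 18 alternatives. Filled symbols passed an adjusted p of 0.05. SELE stays between -4.07 and -2.90 at passage 4, while SELP moves to -0.62 there with the labelling block.

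Other endothelial genes of leukocyte capture, docking and passage were mostly not called. Of 52 listed genes 33 were tested. This list and those below were chosen with earlier results of these data known, and they count each gene's brightest probe set. Their shares are therefore not a test against all tested probe sets. At passage 4, 2 rose and 3 fell (15.2% of the 33, where 4.79% of all tested probe sets passed), and in regenerated cells 1 rose and 2 fell (9.09%, where 5.49% passed). The median differences were -0.08 and -0.00, against 0.04 and -0.01 over all tested probe sets. ITGB3, the beta subunit of the vitronectin receptor, fell to 77.6, 99.4 and 31.3 in passage 4 arrays and to 100.03, 64.2 and 114 in regenerated arrays, against 622, 370.0 and 294 in passage 1 arrays. That is a log2 difference of -2.41 (SE 0.38, adjusted p = 0.00551) at passage 4 and -1.99 (SE 0.38, adjusted p = 0.0128) in regenerated cells. Its usual partner ITGAV rose in both, by 0.78 (SE 0.16, adjusted p = 0.0214) and 1.12 (SE 0.16, adjusted p = 0.00298).

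CXCL16, a membrane chemokine that also holds leukocytes, fell at passage 4 by 1.42 (SE 0.27, adjusted p = 0.0137), and was lower there than in regenerated cells by 1.24 (SE 0.27, adjusted p = 0.0127), the 1 call of 33 genes in that comparison. JAM3, a junctional adhesion molecule, rose at passage 4 by 1.06 (SE 0.22), and NECTIN2, a nectin of cell junctions, fell by 1.20 (SE 0.30). In regenerated cells ADAM17, a protease that cleaves adhesion proteins off the cell surface, fell by 0.84 (SE 0.22), while 2 dimmer probe sets of the gene, at -0.12 and -0.67, did not (adjusted p = 0.77 and 0.385). PECAM1 and CDH5, which close the junctions that leukocytes cross, were at 0.10 and -0.08 at passage 4 and at -0.19 and 0.06 in regenerated cells, and did not pass. MCAM, an adhesion protein of the vessel wall, had differences of 1.49 and 1.43 without passing (adjusted p = 0.096 and 0.0975). It is named here because of its size, after its values were seen.

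The induction signals are cytokines, receptors, signalling proteins, transcription factors, cofactors and inhibitors known to act on the transcription of SELE, VCAM1 and ICAM1. Of 54 listed genes 27 were tested. At passage 4, 3 fell and 1 rose (14.8%, where 4.79% of all tested probe sets passed), and in regenerated cells 5 fell (18.5%, where 5.49% passed). Their median differences were -0.40 and -0.28. The list was chosen with earlier results of these data known and counts each gene's brightest probe set, so these shares are not a test of enrichment. NFKBIA, the NF-kB inhibitor that is itself an NF-kB target, fell to 1371, 2366 and 2368 in passage 4 arrays and to 1374, 1521 and 1475 in regenerated arrays, against 5041, 4334 and 4289 in passage 1 arrays. IRF1, an interferon regulatory factor, fell to 536, 620.1 and 582 in passage 4 arrays and to 629, 449.8 and 554 in regenerated arrays, against 1308, 1765 and 1423 in passage 1 arrays. No passage 4 or regenerated array overlapped passage 1 for either gene. The log2 differences of NFKBIA were -1.20 (SE 0.21, adjusted p = 0.00944) and -1.63 (SE 0.21, adjusted p = 0.00197), and those of IRF1 were -1.34 (SE 0.20, adjusted p = 0.0045) and -1.44 (SE 0.20, adjusted p = 0.00241).

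Of the other calls in that list, CEBPB, a transcription factor, fell at passage 4 (-1.003), and JUN, a subunit of AP-1, rose (1.42). In regenerated cells IL1A, the gene of interleukin 1 alpha, fell (-2.01), with its second bright probe set at -1.34 and not past the threshold (adjusted p = 0.0882). The receptor gene IL1R1 fell as well (-0.98, and -0.48 in a dimmer probe set that did not pass). So did HMGA1, a chromatin protein that helps NF-kB bind (-1.28, adjusted p = 0.0396). HMGA1 lay at 1390, 1042 and 1547 in regenerated arrays, against 1723, 4287 and 4440 in passage 1 arrays. The HMGA1 call was lost for 8 of the 9 arrays left out singly. At passage 4 the dimmer IL1R1 probe set was at 1.08 (adjusted p = 0.122) and the bright one at -0.70 (adjusted p = 0.123). The dimmer one, outside these counts, was higher at passage 4 than in regenerated cells (1.56, adjusted p = 0.0176). Passage 4 differed from regenerated cells in 4 of the 27 (14.8%, where 12.5% of all tested probe sets passed). MYD88, an adaptor of interleukin 1 and Toll-like receptors, and IL13RA1 were higher at passage 4 (2.11 and 1.43), and PPARG and CEBPB were lower (-1.85 and -0.86). MYD88, IL13RA1 and PPARG were dim, at 306 at most in all 9 arrays.

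Genes listed here for the Weibel-Palade body, the granule that stores P-selectin, were mostly not called. Of 37 listed genes 20 were tested, and 1 fell both at passage 4 and in regenerated cells (5%, where 4.79% and 5.49% passed). This was CCL2, a monocyte chemokine that the granule can carry. It was at 13422, 15464 and 14959 in passage 4 arrays and at 14842, 12396 and 17168 in regenerated arrays, against 21919, 21037 and 21462 in passage 1 arrays. The differences were -0.56 (SE 0.13, adjusted p = 0.0315) and -0.55 (SE 0.13, adjusted p = 0.0302). The granule protein CD63 was at -0.07 and 0.11, and VWF, which shapes the granule, was below the filter. Between passage 4 and regenerated cells 3 of 20 passed (15%, where 12.5% passed). FABP5, a fatty acid binding protein, and ECE1, which processes endothelin, were higher at passage 4 (2.10 and 1.38). PLAT, tissue plasminogen activator, was lower there (-0.98). FABP5 was counted as listed, and whether it belongs to the granule was not tested. ECE1 was dim, with means of 74.1 at passage 4 and 18.7 in regenerated cells.

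With the labelling block, of the 10 calls in these lists at passage 4, ITGB3 (-2.996, adjusted p = 0.0247) and CXCL16 (-1.96, adjusted p = 0.0218) passed, and the other 8 had adjusted p from 0.0593 to 0.479. Among those, the differences of JAM3, CCL2 and CEBPB were as large with the block (1.07, -0.59 and -1.17), and those of ITGAV, JUN and NECTIN2 were smaller (0.62, 0.64 and -0.67). The block values of NFKBIA and IRF1 were -1.35 (adjusted p = 0.0593) and -1.15 (adjusted p = 0.0674). Of the 9 calls in regenerated cells 6 passed with the block, and ADAM17, IL1R1 and CCL2 did not (-0.85, -0.996 and -0.53, adjusted p from 0.0508 to 0.0654). JUN (1.20, adjusted p = 0.013) and the adhesion partner ITGA5 (-0.97, adjusted p = 0.0454) passed in regenerated cells only with the block. Without it they stood at 0.81 and -0.59 (adjusted p = 0.139 and 0.29). The 8 calls between passage 4 and regenerated cells were all lost with the block (adjusted p from 0.066 to 0.823), which compares these groups only through passage 1. The differences of CXCL16, FABP5, PPARG and CEBPB were no smaller with it (-2.05, 2.86, -2.03 and -1.10), and those of MYD88, IL13RA1, ECE1 and PLAT were smaller (1.19, 0.51, 0.97 and -0.20). The calls that passed with each array left out in turn were those of ITGB3, NFKBIA and IRF1 at passage 4, of ITGAV, NFKBIA and IRF1 in regenerated cells, and of MYD88 between the 2 groups.

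**Figure D5:**
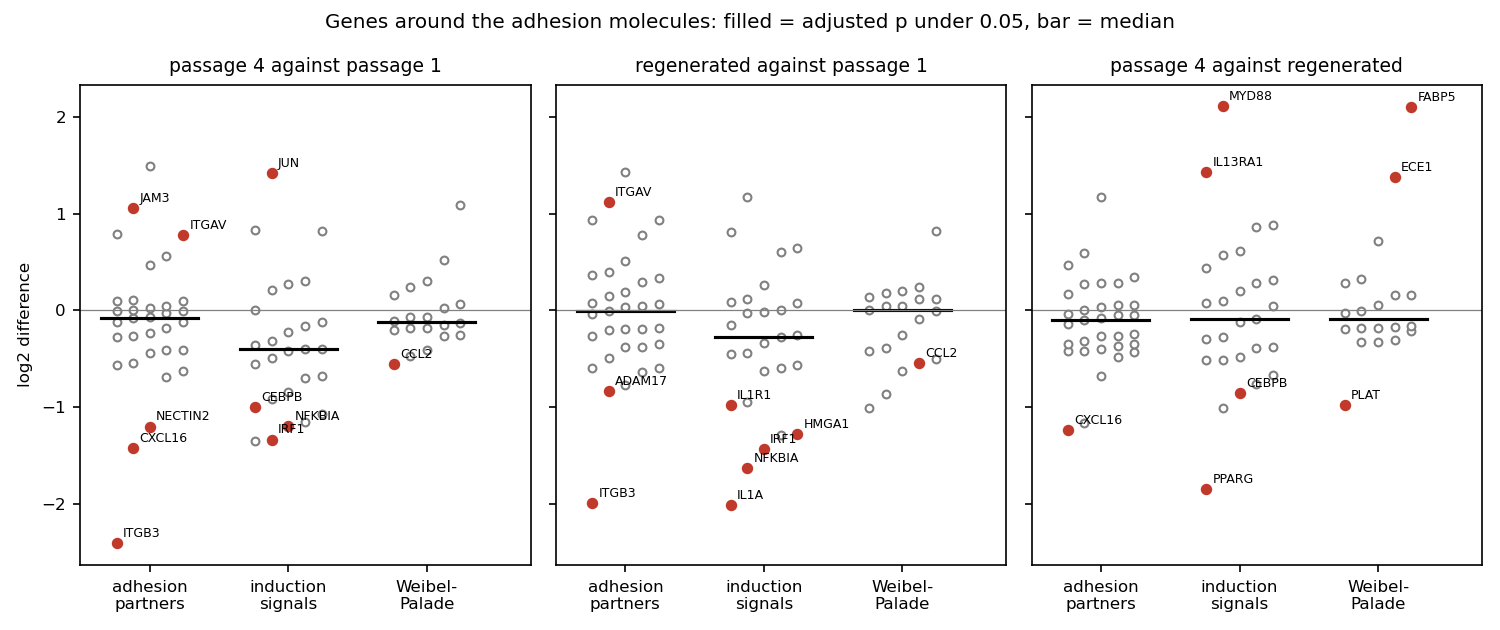
Log2 difference (vertical axis) of the tested genes of 3 lists in the 3 comparisons, 1 point per gene. Filled points passed an adjusted p of 0.05 and are named, and the bar is the list's median. The median of the induction signals lies at -0.40 at passage 4 and -0.28 in regenerated cells, and ITGB3 is the lowest adhesion partner in both.

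The genes whose profile over the 9 arrays was most like that of a listed gene were found by the root-mean-square difference of log2 profiles, each centred on its own mean, among 7670 named probe sets. For SELE they were CCL8, a monocyte chemokine (0.64), LOC100156073 (0.66), C1R, a complement protease (0.70), IL6, a cytokine (0.71), and IRF7, an interferon regulatory factor (0.75), where the median of all named probe sets was 1.77. SELP stood at 1.02 from SELE, and the other 6 tested probe sets of the listed genes at 1.44 or more. For ICAM1 the nearest were HIVEP2, a zinc finger protein (0.13), TNIP1, an inhibitor of NF-kB signalling (0.15), RAE1 (0.15), TMX3 (0.17) and CORO1B (0.17), against a median of 0.47. For VCAM1 they were MAPK14, B2M, CSNK1A1, RPS10 and RPL27A, at 0.07 to 0.09 against a median of 0.39. These distances describe likeness over 9 arrays that share their groups and spike-in kinds, and were not tested.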

How the data were processed

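RNA was measured on 9 arrays. Each deposited value is a linear intensity per probe set, made with MAS5 per the submitters' processing notes. The MAS5 version was not given in the sources used here, nor was the scaling target. After trimming 2% from both tails, the mean of each array was 500.1, and no further normalization was applied. Median signals ran from 86.5 to 109. The number of arrays limits the precision.

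The 124 control probe sets were left out, and testing required a signal over the array's own 40th percentile in 3 or more of the 9 arrays. Log2(signal + 16) was fitted over all 9 arrays with limma 3.58.1 in R 4.3.3 (lmFit, eBayes with an intensity trend; 6 residual and 5.65 prior degrees of freedom). P-values are two-sided and adjusted by Benjamini-Hochberg within each comparison, over every tested probe set. Intervals are 95%. The fit was tested on simulated data.

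By platform annotation, 10099 probe sets have 1 symbol, 198 have several and 13826 have none. No genome build is named, so no coordinates are printed. List genes were taken by their brightest probe set. Named were all member probe sets, up to 6 called genes per list and comparison, and the 5 nearest profiles of SELE, VCAM1 and ICAM1. The members and lists were chosen with earlier results of these data known. Same-numbered arrays of different groups did not deviate together (r from -0.14 to 0.19, over 0.1 in 1 of 9 pairs), so the numbers were not taken to pair the arrays.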

Additional observations from a re-analysis of the deposited data

How the results depend on the processing

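The 24 log2 differences (8 tested probe sets in 3 comparisons) were recomputed under 18 alternatives. Of these values 376 kept their direction and side of the threshold, 29 lost a call, 11 gained one and 16 changed sign, none of them a called difference. The SELE call in regenerated cells held in all 18 alternatives, and that at passage 4 in each except the labelling block. With that block, in limma, 0 listed probe sets passed at passage 4 (3 at an unadjusted p under 0.05), 5 in regenerated cells and 0 between the 2 groups (0 unadjusted). Between these groups SELE then stood at 0.57, SELP at 1.36, VCAM1 at -0.15 and ALCAM probe set A at -0.45, and VCAM1 against passage 1 stood at -0.13 at passage 4 and 0.0234 in regenerated cells. ALCAM probe set B, called between the groups, stood at 0.12. With the block the calls at passage 4 were 2 adhesion partners, 0 induction signals (6 unadjusted) and 0 Weibel-Palade genes (4 unadjusted), in regenerated cells 0 Weibel-Palade genes (4 unadjusted), and between the groups 0 adhesion partners (4 unadjusted), 1 induction signal (HMGA1, at 2.21, not called without the block) and 0 Weibel-Palade genes (4 unadjusted). VCAM1 at passage 4 was at -0.000423 with median centring and -0.022 with quantile normalization.

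Between passage 4 and regenerated cells 1 listed probe set passed with no filter, median centring or the replicate block, and 0 with no intensity trend (2 unadjusted). In regenerated cells 1 passed with no intensity trend. Weibel-Palade calls became 0 with no filter, no intensity trend or the replicate block, both at passage 4 (2 to 3 unadjusted) and in regenerated cells (3 to 6 unadjusted), and in regenerated cells with median centring (4 unadjusted). Adhesion partners numbered 3 at passage 4 with no intensity trend, and 2 between the groups with a pseudocount of 64, median centring, quantile normalization or the replicate block. Induction signals numbered 2 between the groups with the stricter filter (60th percentile, 22 genes tested) and 3 in regenerated cells with the replicate block. The causes were not tested. With the replicate block SELP at passage 4 passed (-1.88, adjusted p = 0.0214), and all calls numbered 549 at passage 4, 554 in regenerated cells and 1626 between the groups, against 733, 840 and 1912 without it.

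With single arrays left out, listed probe sets past the threshold ran from 2 to 4 at passage 4, 1 to 5 in regenerated cells and 0 to 2 between the groups. Adhesion partners ran from 2 to 7, 1 to 3 and 0 to 2, induction signals from 2 to 6, 2 to 6 and 1 to 5, and Weibel-Palade genes from 0 to 1, 0 to 1 and 0 to 3. VCAM1 ran from -0.0126 to 0.134 at passage 4, from -0.169 to 0.108 in regenerated cells and from -0.0621 to 0.215 between the groups. Between the groups SELE ran from -0.95 to 0.00127 and ALCAM probe set A from -0.18 to 0.34. With 3 arrays a group, and 1 or 2 passage 1 arrays per spike-in kind, the number of arrays limits what these comparisons can detect.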

Other observations

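The 2 ALCAM probe sets below the filter had signals from 0.381 to 30.4 over the 9 arrays. Fitted without the filter, their differences ranged from -0.24 to 0.69 and none passed in limma (adjusted p of 0.112 or more). Among other cell type markers, KRT8 was the 1 tested epithelial marker of 5 with a probe set. It fell in regenerated cells (-3.14, adjusted p = 0.00715) and was higher at passage 4 than in regenerated cells (2.21, adjusted p = 0.0206). The summed signal of 10 smooth muscle markers ran from 19388 to 35779 at passage 4 and from 34500.1 to 48793 in regenerated cells, against 18469 to 39215 at passage 1. Of the 7 tested, SMTN rose in regenerated cells (0.89, adjusted p = 0.0422). CNN1 was lower at passage 4 than in regenerated cells (-2.53, adjusted p = 0.0325), and no other smooth muscle marker was called. ACTA2 is named here after its values were seen. It lay at 10501, 485 and 1140 in passage 4 arrays and at 10021, 12254 and 18924 in regenerated arrays. In passage 1 arrays it lay at 13189, 2519 and 196.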
